A study of Mus musculus with 6 samples.

Results

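The let-7 microRNAs let-7b and let-7c were followed through the pro-B cells of fetal liver and adult bone marrow, together with the passenger arms let-7b*, let-7c-1* and let-7c-2* of their precursors. The 5 miRNAs, listed on the array as mmu-let-7b, mmu-let-7c, mmu-let-7b*, mmu-let-7c-1* and mmu-let-7c-2*, were chosen by name among the 567 mouse miRNAs on the array, and 16 of its 1672 mouse probes belong to them. The choice was made with the fetal loss of the guide arms against their passenger arms already known. The levels of the guides describe that loss, and the tests below are not independent support for it. The samples were Fr. B/C cells, the pro-B fraction of the Hardy scheme, sorted from BALB/c mice. The fetal liver group came from embryos at day 16 of gestation, with 3 sorts of 1 litter each and an average of 8 embryos per sort. The bone marrow group came from adult female mice, with 3 sorts that each pooled 3 animals. The labels give no treatment and no engineered allele for either group. Developmental stage, tissue and pooling differ together between the groups and cannot be told apart. No sex is stated here for the embryos, so sex cannot be set apart from these either. Each sort was measured on 1 one-colour array with 100 ng of total RNA.

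As background, a miRNA gene is transcribed as a long primary RNA, cut by Drosha to a hairpin and cut again by Dicer into a duplex of 2 arms. One arm, the guide, is kept by Argonaute and pairs with target messages through its seed, while the other, the passenger (marked with an asterisk in the older names used here), is mostly degraded. let-7 guides restrain growth and fetal programmes and become abundant as tissues mature. LIN28A and LIN28B bind the terminal loop of let-7 precursors and block their maturation, and LIN28B is known to be active in fetal blood progenitors. Guide and passenger come from the same hairpin, and an array that carries probes for both reads the levels of the 2 mature arms, not of the precursor.

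The mature sequences are shown because the array has to tell nearly identical arms apart. They are RefSeq entries of GRCm38.p6, written 5′ to 3′, and the capitals mark the seed, bases 2 to 8. All 5 members matched an entry. let-7a-5p is no member and is shown as the nearest relative of let-7c.
let-7b-5p: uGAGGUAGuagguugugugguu
let-7c-5p: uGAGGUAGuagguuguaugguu
let-7a-5p: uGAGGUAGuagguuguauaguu
let-7b-3p (let-7b*): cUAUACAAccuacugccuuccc
let-7c-1-3p (let-7c-1*): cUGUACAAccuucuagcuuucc
let-7c-2-3p (let-7c-2*): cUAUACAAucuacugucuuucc

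Counted from 1 at the 5′ end, let-7c differs from let-7b by G17A and let-7a differs from let-7c by G19A, each 1 base of 22 and outside the seed. The guide seed GAGGUAG is shared by 11 mouse mature miRNAs of the table, so let-7b and let-7c belong to 1 seed group. The passenger arms differ more. let-7c-2* differs from let-7b* at 3 bases (C9U, C16U and C20U) and let-7c-1* differs from let-7b* at 5. The seed of let-7b* and let-7c-2* is shared by 5 mature miRNAs, whereas that of let-7c-1* occurs in 1. let-7c-2* has the same full sequence as the passenger arm of let-7a-1, and the scanner files give its probes the names of both, so these probes cannot tell the 2 arms apart.

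The 3 precursors are shown with both arms in capitals and the terminal loop, the part that LIN28 proteins contact, between them. They are RefSeq entries of GRCm38.p6 on the plus strand.
Mirlet7b, chr15:85707319-85707403: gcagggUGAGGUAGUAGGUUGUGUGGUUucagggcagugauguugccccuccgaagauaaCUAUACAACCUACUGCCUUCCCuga
Mirlet7c-2, chr15:85706603-85706697: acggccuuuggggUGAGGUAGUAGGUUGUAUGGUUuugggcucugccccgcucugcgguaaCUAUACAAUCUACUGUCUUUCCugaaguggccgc
Mirlet7c-1, chr16:77599657-77599750: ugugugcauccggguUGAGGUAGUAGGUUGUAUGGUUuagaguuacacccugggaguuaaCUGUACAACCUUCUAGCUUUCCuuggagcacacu

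Mirlet7b and Mirlet7c-2 lie 709 bases apart, measured between the ends of their guide arms, and both sit within the long non-coding RNA gene Lncppara. Mirlet7c-1 lies on another chromosome beside Mir99a and Mir125b-2. let-7c can therefore come from either place, and its guide probes cannot say from which. The letters GGAG, a motif bound by LIN28 zinc knuckles, were searched between the arms on the RNA strand alone. They occur in the loop of Mirlet7c-1 (1 match) and in neither of the other two hairpins, whose loops have 32 bases (Mirlet7b) and 26 bases (Mirlet7c-2). Among all 644 mouse hairpins with both arms in the table, 8.07% hold these letters between the arms, and the share is 18.8% of the 48 hairpins with loops of 23 to 32 bases. No other letters were searched, so a loop without GGAG was not shown to lack a LIN28 site.

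Each guide has 2 probes and each passenger arm 4, which differ in how many bases of the arm they cover, always counted back from its 3′ end. By the positions in the scanner files (mm9), the let-7b probes cover bases 4 to 22 (chr15:85537758-85537776) and 5 to 22 of the arm. The let-7c probes cover the same bases of let-7c (the longer at chr15:85537049-85537067). The let-7b* probes are shorter, with 13, 14, 15 and 16 bases, and the 14-base probe lies at chr15:85537817-85537830. The stretch covered by a let-7b guide probe differs from let-7c by 1 base, and the stretch covered by a let-7c probe differs from let-7a and from let-7b by 1 base. What part of any signal comes from these relatives was not tested.

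All 6 arrays lay on 1 slide with 1 scan time, with the fetal liver arrays in 1 row and the bone marrow arrays in the other, so row and tissue cannot be told apart. The second fetal liver array stood apart. Feature Extraction, the scanner software, called 7.02% of its mouse spots well above background, against 18.4% and 21.7% on the other two fetal liver arrays and 20.0% to 23.7% on the bone marrow arrays. The SD of its negative controls was 10.3 units, against 2.33 to 2.76 on the other 5 arrays. Results are therefore given with and without it. miR-142-3p, a pan-haematopoietic miRNA, was detected throughout, at 9.23, 8.95 and 9.89 in fetal liver and 9.46, 8.35 and 8.99 in bone marrow (log2). Of the 4 lymphoid markers, 2 were detected on every fetal liver array and 4 on every bone marrow array, with summed scaled signals of 355 to 544 in fetal liver and 471 to 625 in bone marrow. Of the 3 stromal markers present none was detected on any array.

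let-7b fell deeply in fetal liver and was detected on 1 of its 3 arrays. Values are log2 of the processed signal after scaling each array, with a common floor of 4.04 for signals too dim to order. The 19-base probe of let-7b read 5.29, 4.04 and 4.04 in fetal liver, the last pair at the floor, against 8.55, 8.44 and 8.72 in bone marrow. All fetal liver arrays were below all bone marrow arrays, and the bone marrow arrays spanned a narrow range. The mean was 4.46 ± 0.72 in fetal liver and 8.57 ± 0.14 in bone marrow (SD, n = 3 each), a difference of -4.11 ± 0.37 (SE), or 17.3-fold lower in fetal liver (limma with Benjamini-Hochberg adjustment over 135 miRNAs, adjusted p = 0.000721). Without the second fetal liver array the difference was -3.96 (limma, adjusted p = 0.00556). In sorted bulk cells, fewer cells that carry a miRNA and less of it per cell cannot be told apart.

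The spots behind these values show how far the fetal signal reached down. Before scaling, the 10 let-7b spots averaged 25.3, -2.18 and 13.7 units on the fetal liver arrays, against 416, 566 and 427 units on the bone marrow arrays. On the first fetal liver array all 10 spots were well above background, with spot values of 21.6 to 29.1 units. On the second no spot was, and on the third 3 of 10 were, with values of 10.1 to 17.5 units. A probe counted as detected where over 50% of its spots were so called, which held for let-7b on 1 of 3 fetal liver arrays and on all 3 bone marrow arrays. Only miRNAs detected on all 3 arrays of either group were tested. let-7b thus entered the test through bone marrow alone, which favours a lower call.

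The size of the fall is bounded differently on each fetal array. On the first fetal liver array, where let-7b was measured, the bone marrow mean was 9.70-fold higher. On the third, where let-7b lay under the common floor, the bone marrow mean was at least 23.1-fold higher, set against that floor. On the second, whose lowest signal called well above background was high (6.73), the bone marrow mean was at least 3.57-fold higher. The mean fold of 17.3 therefore holds 2 floored values and depends on where the floor is set. With a floor of 1 scaled unit the difference was -5.57, and with normexp background correction it was -2.19.

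let-7c, the guide that differs from let-7b by 1 base, fell as well and stayed measurable on more fetal arrays. Its 19-base probe read 6.83, 4.55 and 5.04 in fetal liver, against 8.86, 8.66 and 8.96 in bone marrow. Again every fetal liver array lay below every bone marrow array, and the first fetal liver array was the highest of its group. The mean was 5.47 ± 1.20 in fetal liver and 8.82 ± 0.15 in bone marrow (SD, n = 3 each), a difference of -3.35 ± 0.57 (SE), or 10.2-fold lower in fetal liver (limma with Benjamini-Hochberg adjustment, adjusted p = 0.00747). Without the second fetal liver array the difference was -2.94 (limma, adjusted p = 0.0239). The call was lost without the third bone marrow array (difference -3.28, limma adjusted p = 0.0686) and when all 567 miRNAs were tested (limma adjusted p = 0.184).

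Before scaling, the let-7c spots averaged 73.6, 12.9 and 34.6 units in fetal liver, against 516, 658 and 503 units in bone marrow. All 10 exceeded background clearly on the first and on the third of the fetal liver arrays and none on the second, so let-7c was detected on 2 of 3 fetal liver arrays. let-7c too entered the test through bone marrow alone, which favours a lower call. On the arrays that measured it the bone marrow mean was 3.98-fold higher than the first and 13.8-fold higher than the third fetal liver array. Against the second it was at least 4.26-fold higher. The fetal liver values of let-7c thus spread more widely than those of bone marrow, with SDs of 1.20 and 0.15.

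**Figure D1:**
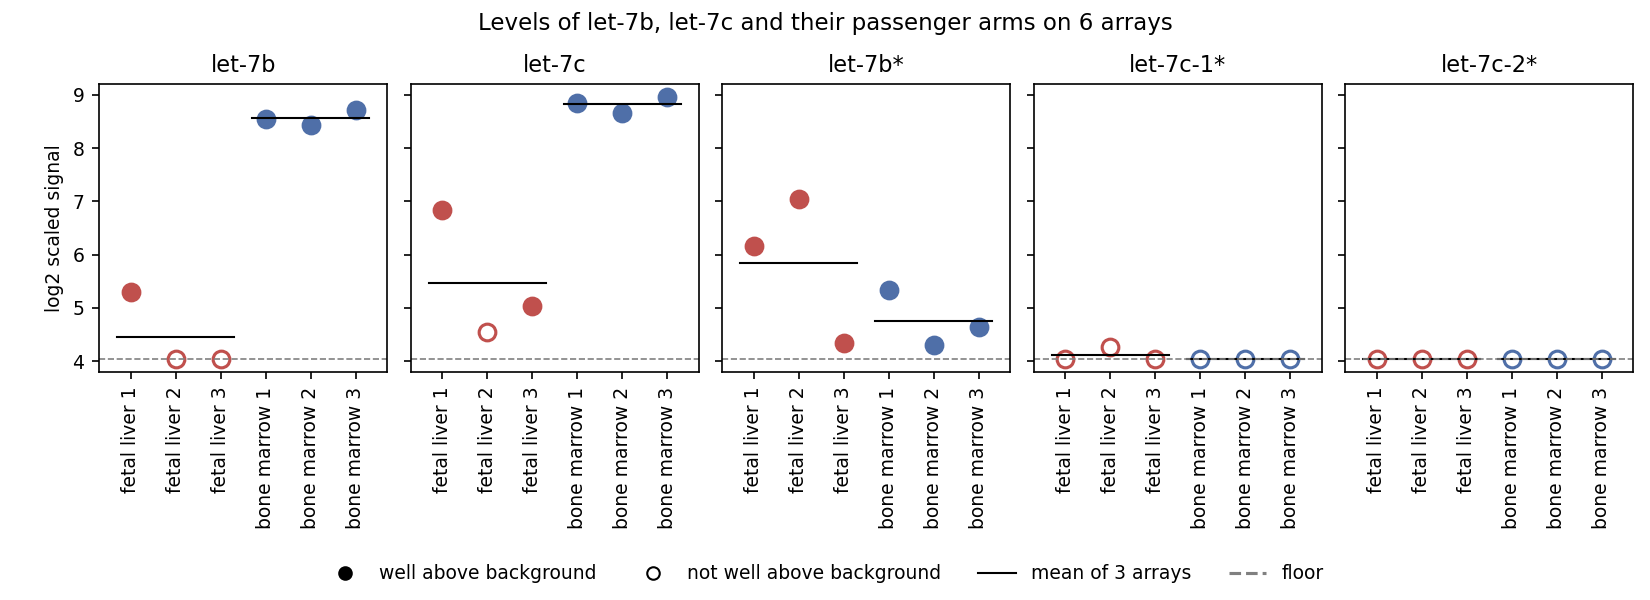
Level of each member on each array (y axis, log2 of the scaled signal), with fetal liver left of bone marrow. Points are arrays, hollow where the probe was not well above background, lines are group means and the dashed line is the floor of 4.04. let-7b lies at 4.04 to 5.29 in fetal liver and 8.44 to 8.72 in bone marrow, whereas let-7b* overlaps between the groups and let-7c-1* and let-7c-2* sit at or beside the floor.

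The second probe of each guide, which covers 18 bases, gave the same direction. For let-7b it was detected on 0 of 3 fetal liver arrays and on all 3 from bone marrow, with means of 4.11 in fetal liver and 7.59 in bone marrow, so bone marrow was at least 6.26-fold higher. With this dimmer probe in place of the brightest for every miRNA, the let-7b difference was -3.47 (limma, adjusted p = 0.000214). For let-7c the 18-base probe was detected on 1 of 3 fetal liver arrays and differed by -2.77, a value in which 2 of the 3 fetal liver arrays stand at the floor (limma, adjusted p = 0.00475). Its spots averaged 26.2, -6.42 and 12.9 units in fetal liver, against 177, 210 and 174 units in bone marrow. No array of either group crossed into the range of the other with any of the 4 guide probes.

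The passenger arm let-7b*, which is cut from the same hairpin as let-7b, did not pass the test in either direction. Its 14-base probe read 6.16, 7.05 and 4.33 in fetal liver, against 5.34, 4.30 and 4.64 in bone marrow. The groups overlapped: the third fetal liver array lay among the bone marrow arrays and the second was the highest of all 6. The mean was 5.85 ± 1.38 in fetal liver and 4.76 ± 0.53 in bone marrow (SD, n = 3 each), a difference of 1.09 ± 0.69 (SE; limma with Benjamini-Hochberg adjustment, adjusted p = 0.331).

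Unlike the guide, let-7b* was detected on all 3 fetal liver and all 3 bone marrow arrays. Before scaling its spots averaged 46.2, 72.9 and 21.1 units in fetal liver, against 45.2, 32.0 and 25.1 units in bone marrow. The highest of these values came from the array that stood apart. Without it the difference was 0.43 (limma, adjusted p = 0.694), and without the third fetal liver array it was 1.75 and passed the threshold (limma, adjusted p = 0.0306). The other 3 probes of let-7b* differed by 0.87 (13 bases), 0.88 (15 bases) and 1.05 (16 bases). The 13-base probe was detected on 2 of 3 fetal liver arrays, and the 15-base and 16-base probes on all 3.

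**Figure D2:**
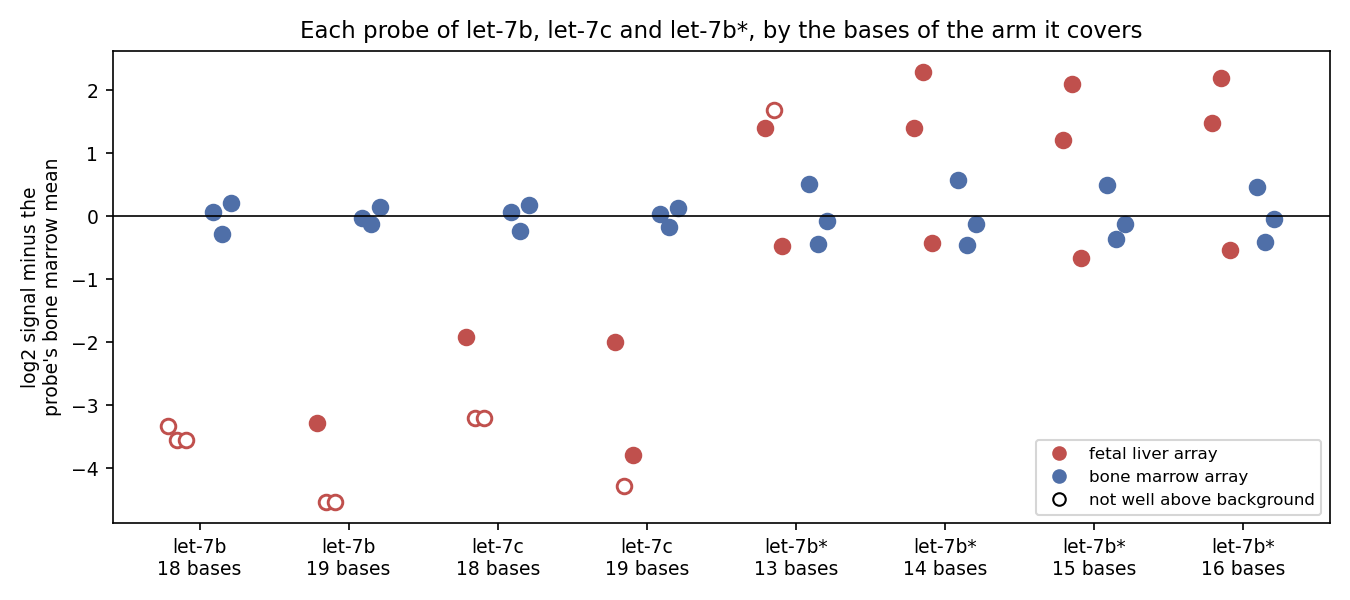
Log2 scaled signal of each array minus the probe's own bone marrow mean (y axis) for every probe of let-7b, let-7c and let-7b*, named by the number of bases of the arm it covers, with fetal liver left of bone marrow. Hollow points mark arrays where the probe was not well above background. Both probes of each guide lie lower in fetal liver, by 2.77 to 4.11, and all 4 probes of let-7b* overlap between the groups.

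The passenger arms of the let-7c precursors, let-7c-1* and let-7c-2*, were detected on 0 of 6 arrays with any of their 8 probes. Before scaling, the 4 let-7c-1* probes averaged -0.62 to 10.6 units in fetal liver and -0.43 to 3.80 units in bone marrow. The 4 let-7c-2* probes averaged -2.48 to 6.43 units in fetal liver and -0.77 to 3.81 units in bone marrow. A single spot of let-7c-2*, 1 of 5 on the first fetal liver array, was called well above background. Both arms had the filter on detection against them and were not tested, so any change in them was not detectable at these signals. 3 of the 5 members were therefore tested.

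Of the 3 tested members, 2 were called lower in fetal liver and 0 higher, whereas 11.1% of all 135 tested miRNAs were called lower and 21.5% in either direction. The members were chosen for this difference, so nothing is read from that count. let-7b and let-7c were also 2 of the 25 miRNAs (18.5% of those tested) whose fetal liver values all lay below bone marrow. The groups did not overlap, in either direction, for 40.7% of the tested miRNAs.

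The change of let-7b was then set against that of its own passenger arm on each array. Levels of different probes are not comparable, so only the change of the difference between tissues was read. The log2 difference let-7b minus let-7b* was -0.87, -3.01 and -0.29 in fetal liver, against 3.20, 4.14 and 4.08 in bone marrow. Every fetal liver array lay below every bone marrow array. The means were -1.39 ± 1.43 in fetal liver and 3.81 ± 0.53 in bone marrow (SD, n = 3 each), so the difference between the arms changed by -5.20 on the log2 scale (two-sided exact permutation test over arrays, p = 0.1, below which 3 against 3 arrays cannot go). The size depends on the floor, at which let-7b stood on 2 of 3 fetal liver arrays: it was -6.66 with a floor of 1 scaled unit, -4.39 with the floor doubled and -2.63 with normexp background correction. Without the second fetal liver array the value was -4.39. let-7c could not be treated in this way, since neither of its passenger arms was measured on any array. The guides were picked for their fetal loss against the passenger arms, which the permutation test does not allow for.

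**Figure D3:**
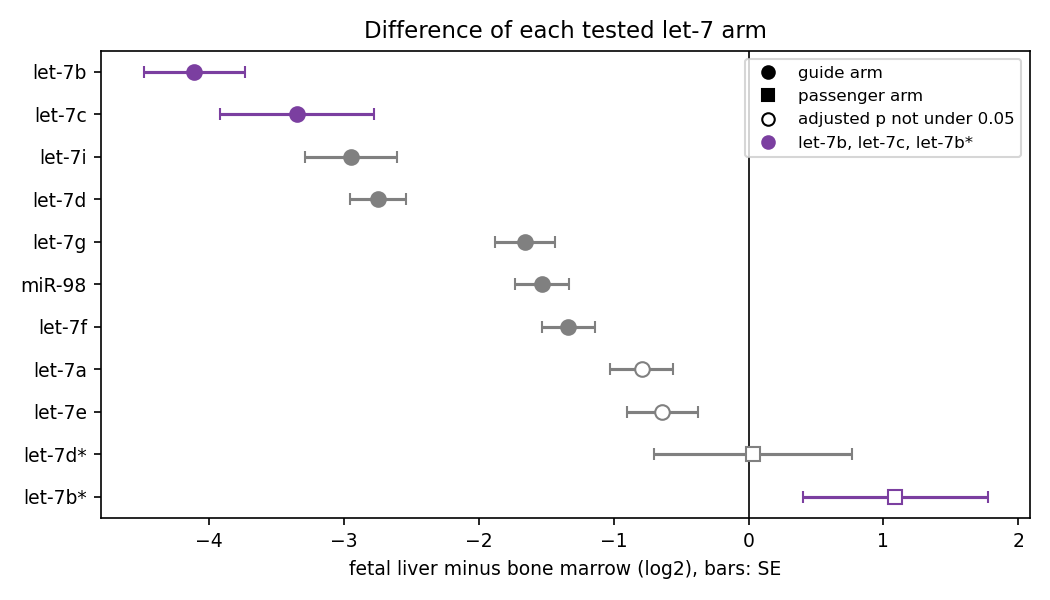
Difference fetal liver minus bone marrow (x axis, log2) of each tested let-7 arm (y axis), with bars for the SE. Circles are guide arms and squares are passenger arms, hollow where the limma adjusted p was not under 0.05. let-7b lies at -4.11 and let-7c at -3.35, whereas the passenger arms let-7b* and let-7d* lie at 1.09 and 0.03.

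let-7b and let-7c were compared with each other in the same manner. let-7c minus let-7b was 1.54, 0.51 and 1.00 in fetal liver, against 0.31, 0.22 and 0.24 in bone marrow. The bone marrow arrays lay close together and every fetal liver array was above them. The means were 1.02 ± 0.51 in fetal liver and 0.25 ± 0.05 in bone marrow (SD, n = 3 each), a change of 0.76 (two-sided exact permutation test, p = 0.1). Without the second fetal liver array it was 1.02. This difference rests on the floor, since let-7b stands at it on 2 fetal liver arrays. With the floor doubled the change was 0.26 (exact permutation test, p = 1), with normexp it was 0.15 (exact permutation test, p = 0.8), and with a floor of 1 scaled unit it was 2.22 (exact permutation test, p = 0.1). These arrays therefore give no firm difference in depth between the guides.

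The pair was also set against the rest of the let-7 guides. The other 7 guides on the array share the seed, and 5 of them were called lower in fetal liver, against 11.1% of all 135 tested miRNAs. let-7i differed by -2.95 ± 0.34 and let-7d by -2.75 ± 0.21, let-7g by -1.66 ± 0.22, miR-98 by -1.53 ± 0.20 and let-7f by -1.34 ± 0.20 (SE), with limma adjusted p-values of 0.000576 to 0.00425. miR-98, dim in both groups, lost its call with a floor of 1 scaled unit (-2.88, limma adjusted p = 0.186) and with each array's own lowest signal as its floor (-0.63, limma adjusted p = 0.542), and let-7i lost its call when all 567 miRNAs were tested (limma, adjusted p = 0.0531). With normexp miR-98 differed by -0.58. let-7a, the nearest in sequence to let-7c, averaged 9.86 ± 0.31 in fetal liver and 10.65 ± 0.11 in bone marrow (SD, n = 3 each), a difference of -0.79 close to the threshold (limma, adjusted p = 0.0514). It stayed uncalled under 14 of 26 alternatives and was called lower under the others, such as without scaling (-1.56, limma adjusted p = 0.00583). let-7e differed by -0.64 (limma, adjusted p = 0.148). Over all 9 let-7 guides 7 were called lower and 0 higher, against 15 lower and 14 higher of all 135 tested miRNAs. The median difference was -1.66 over the guides and 0.25 over all 135. Of the guides let-7b, let-7c, let-7e, let-7i and miR-98 passed the filter on detection through bone marrow alone, which favours a lower call. Without the second fetal liver array the counts of lower calls were again 7 let-7 guides, and 14 of all miRNAs tested then. An alternative added later, without that array but on the same 135 miRNAs, gave 7 and 15.

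The mean of let-7b and let-7c minus the mean of the other 7 guides was -1.06, -2.40 and -2.31 in fetal liver, against 0.19, 0.04 and 0.20 in bone marrow. Every fetal liver array was below every bone marrow array. The means were -1.92 ± 0.75 in fetal liver and 0.14 ± 0.09 in bone marrow (SD, n = 3 each), so the pair changed by -2.06 on the log2 scale relative to the other guides (two-sided exact permutation test, p = 0.1, the smallest possible). Without the second fetal liver array the value was -1.83, and with normexp background correction it was -0.87. Floored fetal liver values enter on both sides, from let-7b and let-7e on 2 arrays each and from miR-98 on 1, and the value was -2.35 with a floor of 1 scaled unit. The pair was picked for this depth, which the test does not allow for.

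Of the 7 let-7 passenger arms on the array, let-7b* and let-7d* were tested and neither was called (0 at an unadjusted limma p under 0.05 as well). let-7d*, the partner of the strongly lower let-7d, differed by 0.03 ± 0.73 (SE; limma, adjusted p = 0.969) with its brightest probe. Its other 3 probes disagreed with that value, at 0.77, 1.13 and 1.27. let-7f* was detected on 1 of 3 fetal liver arrays, and let-7g* and let-7i* on none of them. No other passenger arm thus gives a tested value for the comparison of arms.

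The neighbours of Mirlet7c-1 on chromosome 16, Mir99a and Mir125b-2, make miR-99a and miR-125b, which are expressed in blood stem and progenitor cells. Both tested cluster mates were called lower in fetal liver, against 11.1% of all 135 tested miRNAs. Both passed the filter on detection through bone marrow alone, which favours a lower call, so nothing is read from that count. miR-125b-5p averaged 4.14 ± 0.16 in fetal liver and 5.94 ± 0.21 in bone marrow (SD, n = 3 each) and was detected on none of the fetal liver arrays, so bone marrow was at least 2.00-fold higher (limma, adjusted p = 0.00216). miR-99a gave no fetal signal over the floor (4.04 on each of the 3 arrays) and averaged 4.92 ± 0.05 in bone marrow, a difference of -0.88 (limma, adjusted p = 0.0136). The floor set all its fetal liver values, so their spread was not measured. No least fold could be given for miR-99a, since a signal on the second fetal liver array had to reach 6.73 to be called. Both were called with any 1 fetal liver array left out, and 1 of them with any 1 bone marrow array left out, with the floor doubled or with the replicate block. Their second brightest probes lay at the floor in both groups and gave no call. Other genes can also make miR-125b, and the arrays do not tell them apart.

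The miRNAs whose log2 values over the 6 arrays ran most like those of let-7b were let-7d (Pearson r = 0.99), miR-98 (0.99), miR-125b-5p (0.99), let-7f (0.99) and miR-146a (0.99). Those most like let-7c were miR-34a (0.99), let-7b (0.98), miR-223 (0.97), let-7e (0.96) and miR-98 (0.96). With 3 arrays in each of 2 groups that do not overlap, r here mostly measures the gap between the groups, and it is given as a description. All 9 of these miRNAs had a lower mean in fetal liver.

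Some markers of other cells were highest on the same fetal liver array as the guides and some were not. The first fetal liver array had the highest let-7b (5.29) and let-7c (6.83) of its group. It also had the highest miR-223 (6.78) and miR-146a (4.47), which are abundant in myeloid cells. miR-511, the remaining myeloid marker, read 4.62 on the first and 6.14 on the second. The value on the second lay under 6.73, the lowest signal called well above background there, so miR-511 was not detected on that array. Of the lymphoid markers miR-150 (6.26), miR-155 (7.72) and miR-181a (7.01) were highest on the first fetal liver array and miR-181b on the second (7.28, against 6.99). Of the 3 hepatocyte markers miR-122 was well above background on the first fetal liver array alone (4.99), while miR-192 and miR-194 were at the floor on all 6 arrays. Across the groups the 3 myeloid markers summed to 99.9 to 156 scaled units in fetal liver and 407 to 741 in bone marrow, and 0 of the 3 were detected on every fetal liver array, against 2 of the 3 on every bone marrow array. The 3 erythroid markers summed to 524 to 779 in fetal liver and 121 to 184 in bone marrow, while miR-144 was at the floor throughout. Within fetal liver miR-451 read 8.81, 9.15 and 9.53 and was lowest on the first array. miR-486 read 5.90, 5.95 and 4.65 on the same arrays, and its value on the second was not called well above background. The part of these cells in the fall of let-7b and let-7c was not tested.

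**Figure D4:**
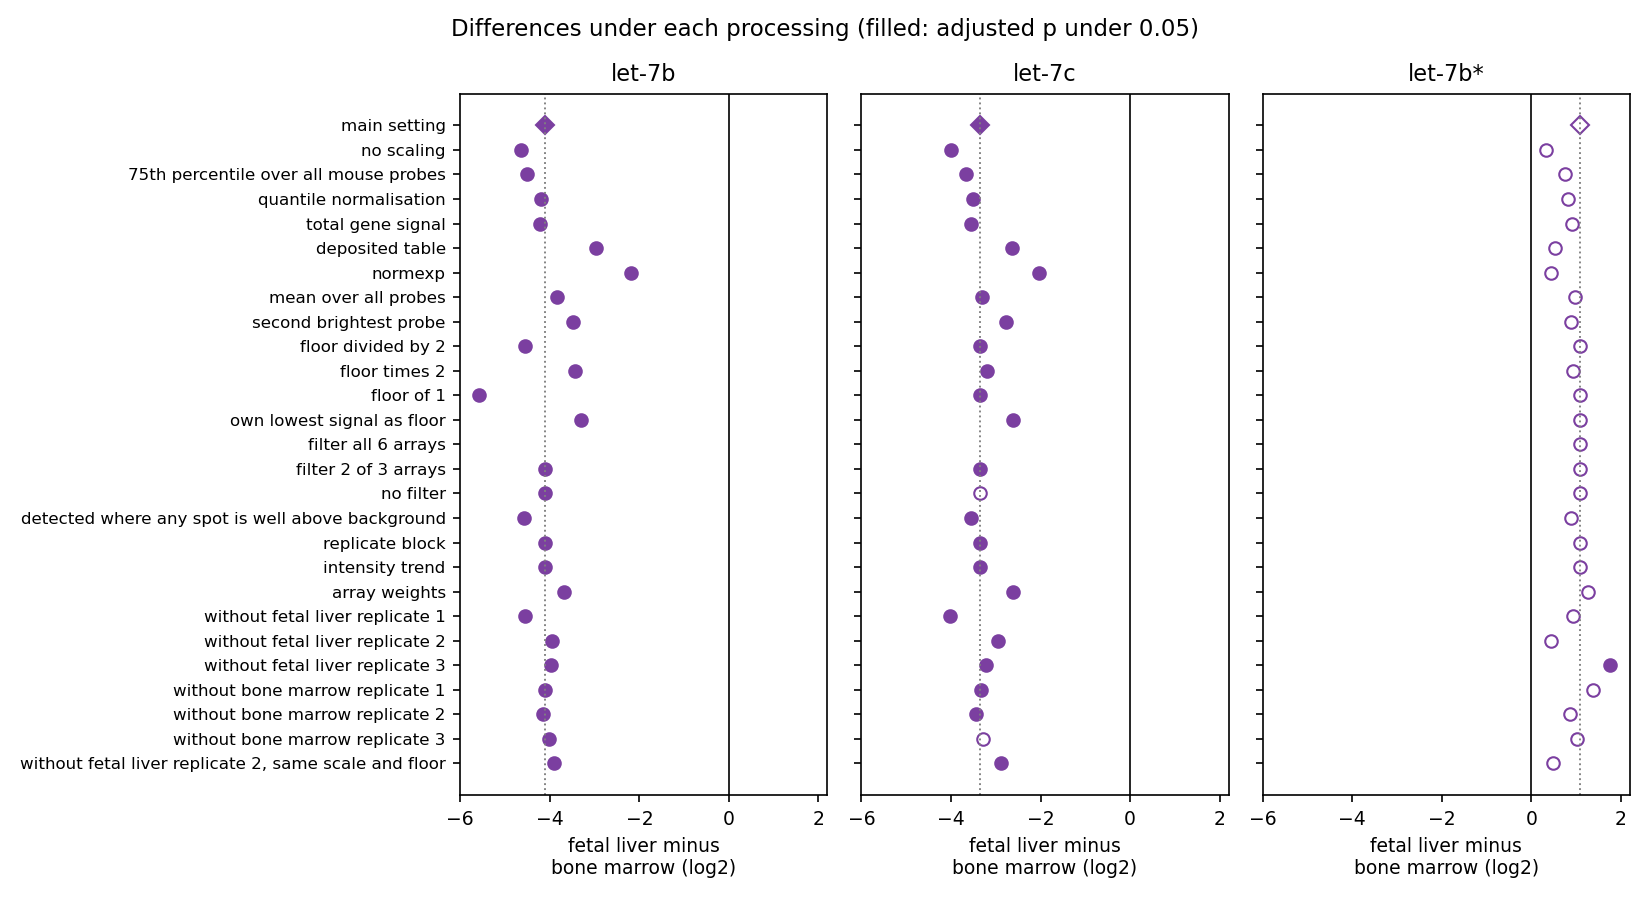
Difference fetal liver minus bone marrow (x axis, log2) of let-7b, let-7c and let-7b* under each way of processing (y axis). Filled points have a limma adjusted p under 0.05, and the dotted lines mark the reported values. let-7b stays between -5.57 and -2.19 and let-7c between -4.03 and -2.04, whereas let-7b* stays between 0.32 and 1.75. Neither guide has a value when detection is required on all 6 arrays.

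The direction of all 3 tested members held under every scaling tried. Without scaling the median of all tested miRNAs moved by -0.75, with let-7b at -4.64, let-7c at -4.01 and let-7b* at 0.32. In the authors' deposited log2 table that median moved by -0.23, and fetal liver minus bone marrow was -2.98 for let-7b, -2.63 for let-7c and 0.53 for let-7b*. Calls lower and higher in fetal liver numbered 15 and 14 after scaling, 20 and 4 without it, 15 and 6 when every mouse probe entered the percentile, 17 and 10 after quantile scaling, and 18 and 11 with the authors' deposited values. All 9 let-7 guides had a negative difference in each of these.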

How the data were processed

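The deposited processed signal is an intensity per spot, background-subtracted by Agilent Feature Extraction 9.5.3.1 per the file headers and not normalised between arrays. The other deposited spot values are flags (other units: 0 or 1 for outlier, saturated or well above background), set by that software per the file headers. The authors also deposited a log2 table whose columns share 1 median (5.24), whose background correction and normalisation are not stated in the labels or headers. Total RNA was isolated with TRIzol and labelled with Cy3, per the labels' protocols.

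Spots of a probe were averaged without outliers, and no spot was saturated. A probe was detected where over 50% of its spots were well above background. The scale factor of an array came from its 75th percentile among 82 probes detected throughout. Scaled signals were floored at 16.5 (the arrays' 5th percentile of detected signals, by median) and log2 was taken. The brightest probe stood for a miRNA. The 135 of 567 miRNAs detected on all 3 arrays of either group were tested with limma 3.58.1 (R 4.3.3, lmFit and eBayes, Benjamini-Hochberg, threshold 0.05), which was also tested on simulated data. Differences between members used exact permutation tests over arrays. A probe detected on no array of a group gave a bound: the bright group's mean against the higher of the dim probe's own level and the lowest signal well above background on each array. The number of arrays limits the precision.

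Named are all members and their probes, the other let-7 arms, the tested cluster mates, the 5 miRNAs most correlated with each guide and the cell type markers. The members and lists were chosen with earlier results of these data known. Replicates are separate sorts. Same-numbered arrays of the groups had correlations of 0.17, -0.12 and -0.24 between their deviations, and differently numbered ones -0.33 to 0.32. With so few arrays these values cannot decide whether the numbers pair the samples, and the samples were treated as unpaired. Alternatives covered scaling, background, floor, probe, filter, variance model, a replicate block and leaving out each array.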

Additional observations from a re-analysis of the deposited data

How the results depend on the processing

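let-7b kept its direction and its call under all 25 alternatives that gave it a value, and let-7c its direction under 25 and its call under 23. let-7b* kept its direction under all 26 and passed the threshold without the third fetal liver array alone. With each array left out in turn, let-7b ranged from -4.56 to -3.96, let-7c from -4.03 to -2.94 and let-7b* from 0.43 to 1.75, let-7b against let-7b* from -5.72 to -4.39, let-7c against let-7b from 0.53 to 1.02, and the pair against the other guides from -2.51 to -1.83. With no filter let-7c was at -3.35 (limma, adjusted p = 0.184). let-7e reversed to 0.17 with each array's own lowest signal as its floor (limma, adjusted p = 0.877). Neither guide passed a filter on all 6 arrays.

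The number of miRNAs called, 29, was 19 with the mean over probes, 16 with the second brightest probe, 18 with own floors, 19 with the filter on all 6 arrays, 12 with no filter and 12 to 41 with an array left out, with 12 without the third, 16 without the second and 19 without the first bone marrow array. Calls lower in fetal liver, 15, were 8 with own floors, 5 with the filter on all 6 arrays, 9 with no filter and 9 to 18 with an array left out. Calls higher, 14, were 4 without scaling, 6 with the percentile over all mouse probes, 7 with the total gene signal, 6 with the mean over probes, 5 with the second probe, 3 with no filter, 22 with array weights and 3 to 25 with an array left out. Lower let-7 guides, 7, were 4 with the filter on all 6 arrays and 6 to 9 with an array left out, and called passenger arms 0 to 1. The guides that passed the filter on all 6 arrays were let-7a, let-7d, let-7f and let-7g alone, and all 4 were called. Lower cluster mates, 2, were 1 with all mouse probes or the floor doubled, 0 with the mean over probes, the second probe, own floors or the filter on all 6 arrays, and 1 to 2 with an array left out. Neither cluster mate passed the filter on all 6 arrays, so neither was tested under it. Apart from these constructions, the cause was not tested.

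With the replicate block, although no pairing by number was shown, let-7b had a limma adjusted p of 0.000659, let-7c 0.00385 and let-7b* 0.241. The calls fell to 23 with 1 cluster mate. The exact permutation tests within pairs cannot go below 0.25, which the 3 differences between members reached at their unchanged values (-5.20, 0.76 and -2.06). On the second fetal liver array a signal had to reach 6.73 to be called, against 3.02 to 4.32 on the others, which limits what it can show for dim arms. The added alternatives, chosen after seeing the data, left out that array with scale, floor and tested set kept: let-7b was at -3.90, let-7c at -2.89 and let-7b* at 0.49.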
